A study of Homo sapiens with 4 samples.

Results

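The transcripts of 6 receptor tyrosine kinases (EGFR, ERBB2, ERBB3, MET, FGFR3 and FGFR4) and of 4 EGF-family ligands (AREG, EREG, HBEGF and TGFA) were followed in HepG2, a human liver cell line labelled as hepatocellular carcinoma (HCC). These 10 genes were taken by symbol from 24462 gene symbols in the deposited count tables, and each was listed once per table. The study made 4 libraries, 1 per condition, from HepG2 cells kept in RPMI medium with fetal bovine serum. They were treated with DMSO, treated with PD0332991, transfected with a scrambled siRNA, or transfected with siRNAs against CDK4 and CDK6 (CDK4/6 KD). PD0332991 (palbociclib) inhibits the kinases CDK4 and CDK6, and DMSO is its solvent. The labels name no separate cultures, and neither how much PD0332991 was given and for how long, nor when transfected cells were harvested, is given in the sources used here.

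The EGF-family ligands followed here are made as membrane-anchored precursors that are cut off the cell surface. They bind EGFR, which then pairs with itself or with ERBB2 or ERBB3. MET is the receptor of hepatocyte growth factor, and FGFR3 and FGFR4 bind fibroblast growth factors. All of them signal through adaptor proteins and RAS to the ERK kinases, and in liver they are known for roles in regeneration and, in HCC, as drug targets. Several EGF-family ligands are themselves induced by ERK signalling in many epithelial cells.

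RNA was measured by QuantSeq, which sequences the 3′ end of poly(A) transcripts, so that a long gene does not gather more reads than a short one. Library totals ran from 8983848 to 11176880 reads, and levels are given as CPM, the reads of a gene per 1000000 reads of its library after TMM normalization of library size. Fold changes were taken after adding 0.5 reads and required 10 or more reads in 1 of the libraries compared. The 95% interval given with each is an exact Clopper-Pearson interval on how the gene's reads were divided. With a single library for each condition there was no spread between replicates, and p-values were not calculated. The intervals compare libraries and not conditions, and they cover counting error only, without PCR copies. In bulk RNA, fewer cells expressing a gene and less RNA per cell cannot be told apart. The targeted genes followed the labels, with CDK4 at 301, 257, 354 and 71.9 CPM and CDK6 at 515, 479, 536 and 129 in the DMSO, PD0332991, scrambled siRNA and CDK4/6 KD libraries. All 12 hepatocyte markers checked had at least 10 reads in every library, with a summed level of 17582 to 22424 CPM.

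The library that stood apart for these genes was the scrambled siRNA control. It held the highest or the lowest level of the 4 libraries for 10 of 10 genes, against 52.2% of the 13961 genes with at least 10 reads in any library. The DMSO library was at an end of the order for 2 of the 10 genes, against 46.7% of all genes, while PD0332991 and CDK4/6 KD were each at an end for 4, against 52.6% and 48.4%. The 4 ligands were all highest in scrambled siRNA, and 4 of the 6 receptors were lowest there. For FGFR4 (77.9 CPM, against 78.6 in DMSO) and TGFA (41.6 CPM, against 41.0 in CDK4/6 KD) the next library did not differ from it beyond counting error. The fold changes of the 10 genes, and the counts of the gene lists that follow them, are therefore given against both control libraries. Comparisons that use the same control library share its reads and are not independent of each other.

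**Figure D1:**
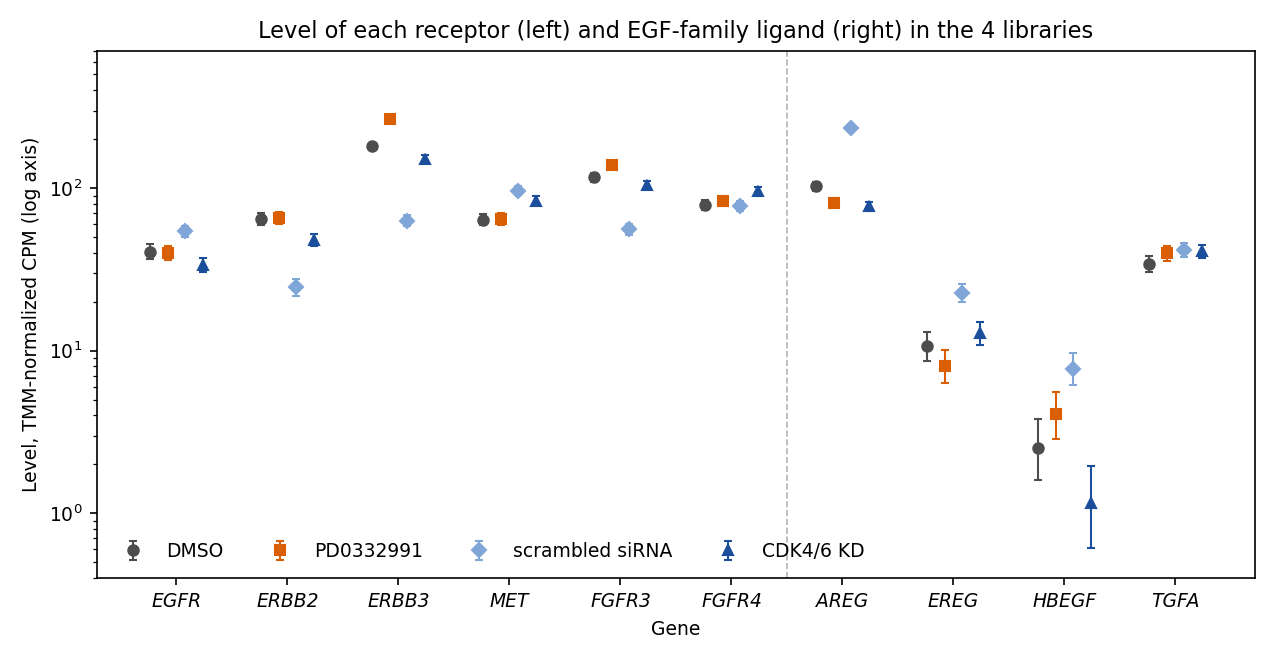
TMM-normalized CPM on a log axis for each of the 10 genes, with receptors left and ligands right of the dashed line and 1 symbol per library (DMSO, PD0332991, scrambled siRNA and CDK4/6 KD). Bars are exact 95% Poisson intervals of the count. The scrambled siRNA library lies below the others for ERBB2, ERBB3 and FGFR3 and above them for AREG, EREG and HBEGF, whereas FGFR4 and TGFA span only 1.22-fold.

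ERBB3 (chromosome 12, 56076799 to 56103505, + strand, GRCh38) encodes a receptor with a weak kinase that binds neuregulins and signals through its partners. It was the most counted of the 6 receptors in the DMSO, PD0332991 and CDK4/6 KD libraries. It gave 181 CPM in DMSO, 267 in PD0332991, 63.1 in scrambled siRNA and 152 in CDK4/6 KD (reads: 1656, 2429, 675 and 1716). Each step in the order of levels was larger than counting error, and the highest and lowest libraries differed 4.23-fold. CDK4/6 KD was higher than scrambled siRNA (fold change: 2.40, 95% interval 2.20 to 2.63) but slightly lower than DMSO (fold change: 0.837, 0.781 to 0.895). PD0332991 was higher than both controls, by 1.47-fold against DMSO (1.38 to 1.57) and by 4.23-fold against scrambled siRNA (3.88 to 4.61). A second protein-coding gene, AC034102.2, overlaps the last exon of ERBB3 on the same strand in GENCODE, so some of these reads could belong to it.

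ERBB2 (chromosome 17, 39687914 to 39730426, + strand) encodes the receptor without a known ligand that the other family members prefer as partner. Its levels were 64.7 CPM in DMSO, 65.6 in PD0332991, 24.5 in scrambled siRNA and 48.2 in CDK4/6 KD (reads: 591, 597, 262 and 546). The DMSO and PD0332991 libraries were alike within counting error and the scrambled siRNA library stood lowest. The fold change in CDK4/6 KD was 1.97 against scrambled siRNA (1.70 to 2.29) and 0.746 against DMSO (0.663 to 0.839), so that its direction depended on the control. With PD0332991 it was 1.01 against DMSO (0.903 to 1.14) and 2.67 against scrambled siRNA (2.31 to 3.11).

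EGFR (chromosome 7, 55019021 to 55211628, + strand), the receptor of all 4 ligands, moved over a narrower range. It gave 40.7 CPM in DMSO, 39.9 in PD0332991, 54.1 in scrambled siRNA and 33.8 in CDK4/6 KD (reads: 372, 363, 579 and 383). It was highest in scrambled siRNA and lowest in CDK4/6 KD, and the DMSO and PD0332991 levels did not differ beyond counting error. CDK4/6 KD was lower than either control, with a fold change of 0.626 against scrambled siRNA (0.548 to 0.713) and of 0.831 against DMSO (0.719 to 0.961). PD0332991 was at 0.979 of DMSO (0.845 to 1.13) and 0.737 of scrambled siRNA (0.644 to 0.842).

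MET (chromosome 7, 116672390 to 116798386, + strand) was higher in the transfected libraries. Its levels were 64.0 CPM in DMSO, 64.7 in PD0332991, 96.6 in scrambled siRNA and 83.4 in CDK4/6 KD (reads: 585, 589, 1034 and 944). Scrambled siRNA and CDK4/6 KD were both above DMSO and PD0332991, whose levels were alike within counting error. CDK4/6 KD was 0.863 of scrambled siRNA (0.789 to 0.944) and 1.30 of DMSO (1.17 to 1.45), and PD0332991 was 1.01 of DMSO (0.900 to 1.13) and 0.670 of scrambled siRNA (0.604 to 0.741).

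FGFR3 (chromosome 4, 1793293 to 1808872, + strand) had the same order of libraries as ERBB3. It gave 117 CPM in DMSO, 138 in PD0332991, 55.8 in scrambled siRNA and 105 in CDK4/6 KD (reads: 1065, 1261, 597 and 1183), and all neighbours in the order of levels differed beyond counting error. The fold change in CDK4/6 KD was 1.87 against scrambled siRNA (1.70 to 2.07) and 0.897 against DMSO (0.825 to 0.975). With PD0332991 it was 1.19 against DMSO (1.09 to 1.29) and 2.48 against scrambled siRNA (2.25 to 2.74). The annotation names 3 FGFR3 pseudogenes, which the authors' counting could have shared reads with.

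FGFR4 (chromosome 5, 177086886 to 177098144, + strand), the main fibroblast growth factor receptor of hepatocytes, varied least among the receptors. Its levels were 78.6 CPM in DMSO, 83.4 in PD0332991, 77.9 in scrambled siRNA and 95.4 in CDK4/6 KD (reads: 718, 759, 834 and 1080). The other 3 libraries lay close together below CDK4/6 KD, which was 1.22-fold above scrambled siRNA (1.12 to 1.34) and 1.21-fold above DMSO (1.10 to 1.34). It was the only 1 of the 10 genes that was higher in CDK4/6 KD than in both controls beyond counting error. The PD0332991 library was at 1.06 of DMSO (0.957 to 1.18) and 1.07 of scrambled siRNA (0.968 to 1.18).

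Among the ligands, AREG, EREG and HBEGF all passed 2-fold in scrambled siRNA against DMSO, on the higher side. The promoter bases just upstream of their transcription starts are printed because these were the ligands that moved together (RefSeq, GRCh38.p14, 250 bases each, 5′ to 3′ on the gene's strand, with motif matches in capitals). Motifs were searched on both strands and counted in windows of the same length of 35116 promoters. The TATA box (letters TATAAA) occurred in 10.7% of those windows, the core of the cAMP response element, CRE (letters TGACGT), in 7.10% and the SP1 box (letters GGGCGG) in 42.6%. The AP-1 site (letters TGACTCA) occurred in 4.20%, the ETS site (letters CCGGAAG) in 8.52%, the E-box (letters CACGTG) in 6.34% and the E2F site (letters TTCCCGC) in 5.52%.
AREG, chr4:74444886-74445135, + strand: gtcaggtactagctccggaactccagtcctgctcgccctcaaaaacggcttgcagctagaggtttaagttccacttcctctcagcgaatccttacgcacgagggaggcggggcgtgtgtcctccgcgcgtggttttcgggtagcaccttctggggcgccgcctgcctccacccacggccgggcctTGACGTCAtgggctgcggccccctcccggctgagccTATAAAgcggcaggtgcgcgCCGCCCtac
EREG, chr4:74364895-74365144, + strand: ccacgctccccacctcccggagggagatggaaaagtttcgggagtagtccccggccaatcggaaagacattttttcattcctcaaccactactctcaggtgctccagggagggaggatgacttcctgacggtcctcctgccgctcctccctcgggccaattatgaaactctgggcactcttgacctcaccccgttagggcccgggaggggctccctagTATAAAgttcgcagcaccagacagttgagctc
HBEGF, chr5:140346604-140346853, − strand: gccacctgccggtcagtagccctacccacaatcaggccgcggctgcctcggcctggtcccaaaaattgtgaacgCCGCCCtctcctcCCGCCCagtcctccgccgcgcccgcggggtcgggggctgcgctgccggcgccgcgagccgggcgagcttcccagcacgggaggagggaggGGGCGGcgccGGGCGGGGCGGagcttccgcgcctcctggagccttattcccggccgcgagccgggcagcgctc
The AREG window held TATA letters 29 to 24 bases before the start, SP1 letters near the start, and CRE core letters on both strands that overlap each other. The EREG window held TATA letters 32 to 27 bases before the start and no other match, and the HBEGF window held 5 SP1 matches, several of them in one cluster, and no TATA letters. None of the 3 windows held the AP-1, ETS, E-box or E2F letters. A match of letters is a description and not a binding site. Promoter entries were found for 9 of the 10 genes.

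AREG (chromosome 4, 74445134 to 74455009, + strand) encodes amphiregulin, a low-affinity ligand of EGFR, and was the most counted ligand in each library. It gave 102 CPM in DMSO, 81.2 in PD0332991, 235 in scrambled siRNA and 77.2 in CDK4/6 KD (reads: 936, 739, 2514 and 874). The scrambled siRNA library stood far above the others, and PD0332991 and CDK4/6 KD did not differ beyond counting error. AREG was lower in CDK4/6 KD than in both controls, with a fold change of 0.329 against scrambled siRNA (0.304 to 0.355) and of 0.754 against DMSO (0.687 to 0.827). It was also lower in PD0332991 than in both, at 0.792 of DMSO (0.718 to 0.873) and 0.346 of scrambled siRNA (0.318 to 0.375). The human genome build hg19, which the submitters' processing notes name, carries a near-identical copy, AREGB, so the AREG count is less certain than the others.

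EREG (chromosome 4, 74365143 to 74388751, + strand) encodes epiregulin, which binds EGFR and ERBB4. Its levels were 10.6 CPM in DMSO, 8.02 in PD0332991, 22.6 in scrambled siRNA and 12.8 in CDK4/6 KD (reads: 97, 73, 242 and 145). Only the scrambled siRNA library stood out from its neighbour in the order of levels. CDK4/6 KD was 0.567 of scrambled siRNA (0.458 to 0.699), whereas its fold change of 1.21 against DMSO was within counting error (0.927 to 1.58). PD0332991 was 0.756 of DMSO (0.550 to 1.03) and 0.356 of scrambled siRNA (0.269 to 0.462).

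HBEGF (chromosome 5, 140332843 to 140346631, − strand) encodes heparin-binding EGF-like growth factor, a ligand of EGFR and ERBB4, and had the fewest reads and the widest range. It gave 2.52 CPM in DMSO, 4.06 in PD0332991, 7.76 in scrambled siRNA and 1.15 in CDK4/6 KD, from 23, 37, 83 and 13 reads. The highest and lowest libraries differed 6.52-fold, while PD0332991 and DMSO did not differ beyond counting error. CDK4/6 KD was below both controls, with a fold change of 0.153 against scrambled siRNA (0.0757 to 0.267) and of 0.467 against DMSO (0.212 to 0.939). Its PD0332991 fold change was 1.60 against DMSO (0.934 to 2.85) and 0.527 against scrambled siRNA (0.346 to 0.781).

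TGFA (chromosome 2, 70447280 to 70554193, − strand) encodes transforming growth factor alpha, a high-affinity EGFR ligand. Its levels were 34.1 CPM in DMSO, 39.8 in PD0332991, 41.6 in scrambled siRNA and 41.0 in CDK4/6 KD (reads: 312, 362, 445 and 464). No neighbours in the order of levels differed beyond counting error. CDK4/6 KD was 0.986 of scrambled siRNA (0.864 to 1.13) and 1.20 of DMSO (1.04 to 1.39), and PD0332991 was 1.16 of DMSO (0.998 to 1.36) and 0.956 of scrambled siRNA (0.830 to 1.10).

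AREG, EREG and HBEGF are also made by keratinocytes, and markers of that cell type moved between these libraries. The summed level of 22 keratinocyte markers was 222 CPM in DMSO, 254 in PD0332991, 384 in scrambled siRNA and 219 in CDK4/6 KD. SFN gave 134, 61.8, 305 and 102 CPM of it (reads: 1221, 563, 3266 and 1152), and KRT10 gave 66.3, 77.0, 48.0 and 87.1 CPM. The high sum in scrambled siRNA thus rested on SFN, and without SFN that library did not stand highest. The number of these markers with 3 reads or fewer was 12, 2, 8 and 8 in the same order. TP63, COL17A1, IVL and TRIM29 were at 0 in scrambled siRNA, KRT1, COL17A1 and TRIM29 in DMSO, DSG3 and DSC3 in CDK4/6 KD, and none in PD0332991. TP63 (1, 1, 0 and 1 reads), DSG3 (2, 2, 1 and 0 reads) and IVL (2, 4, 0 and 2 reads) had few reads in every library. The basal keratins KRT5 (2, 113, 13 and 43 reads) and KRT14 (9, 249, 31 and 74 reads) were highest in PD0332991. Of the 13 markers tested in PD0332991 against DMSO, 9 were at least 2-fold higher and 1 lower, and of 11 in scrambled siRNA against DMSO 6 were higher and 0 lower. Whether such cells were present was not tested, nor was their part in the ligand levels.

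Comparing the control libraries with each other showed how far 2 libraries without CDK4/6 inhibition lay apart in these genes. Against DMSO, scrambled siRNA was at least 2-fold higher for 3 of the 10 genes, AREG (fold change: 2.29, 2.13 to 2.47), EREG (2.13, 1.68 to 2.72) and HBEGF (3.04, 1.92 to 5.13), beside 5.30% of 13303 genes tested. It was at least 2-fold lower for 3, ERBB2 (0.379, 0.326 to 0.439), ERBB3 (0.348, 0.318 to 0.381) and FGFR3 (0.479, 0.432 to 0.530), beside 6.64% of all genes. By counting error 6 of the 10 were higher (28.3% of all genes were) and 3 lower (28.0% were). MET was 1.51 times the DMSO level (1.36 to 1.67), EGFR 1.33 (1.16 to 1.52), TGFA 1.22 (1.05 to 1.41) and FGFR4 0.992 (0.897 to 1.10). The median log2 fold change was 1.14 for the ligands and -0.54 for the receptors, and that of all genes was 0.0088. The treatments of the control libraries differ (solvent against transfection), so this is no replicate comparison, and treatment and library cannot be told apart.

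Against its own control, scrambled siRNA, CDK4/6 KD had 1 of the 10 genes at least 2-fold higher (ERBB3) and 2 at least 2-fold lower (AREG and HBEGF). Among all 13617 genes tested, 9.19% were that far higher and 7.62% that far lower. By counting error alone, 4 of the 10 were higher (ERBB2, ERBB3, FGFR3 and FGFR4) beside 30.0% of all genes, 5 were lower (EGFR, MET, AREG, EREG and HBEGF) beside 31.9%, and the interval of TGFA held 1. At 1.5-fold, 3 were higher beside 19.4% of all genes and 4 lower beside 17.4%. The median log2 fold change was -0.12 over the 10 genes, 0.60 over the receptors and -1.21 over the ligands, against -0.0036 for all genes.

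Against DMSO, HBEGF was the only 1 of the 10 genes past 2-fold in CDK4/6 KD, on the lower side, beside 8.16% of 13512 genes that low and 8.04% that high. By counting error, 3 of the 10 were higher (MET, FGFR4 and TGFA) beside 28.9% of all genes and 6 were lower (EGFR, ERBB2, ERBB3, FGFR3, AREG and HBEGF) beside 30.5%. The medians were -0.21 for the receptors and -0.07 for the ligands, so the receptor median changed sign with the control and the ligand median lay near 0. ERBB2, ERBB3 and FGFR3 were on opposite sides of 1 against the different controls beyond counting error, and so was MET. FGFR4 was higher than both controls, beside 17.2% of 13379 genes, and EGFR, AREG and HBEGF were lower than both, beside 19.6%.

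**Figure D2:**
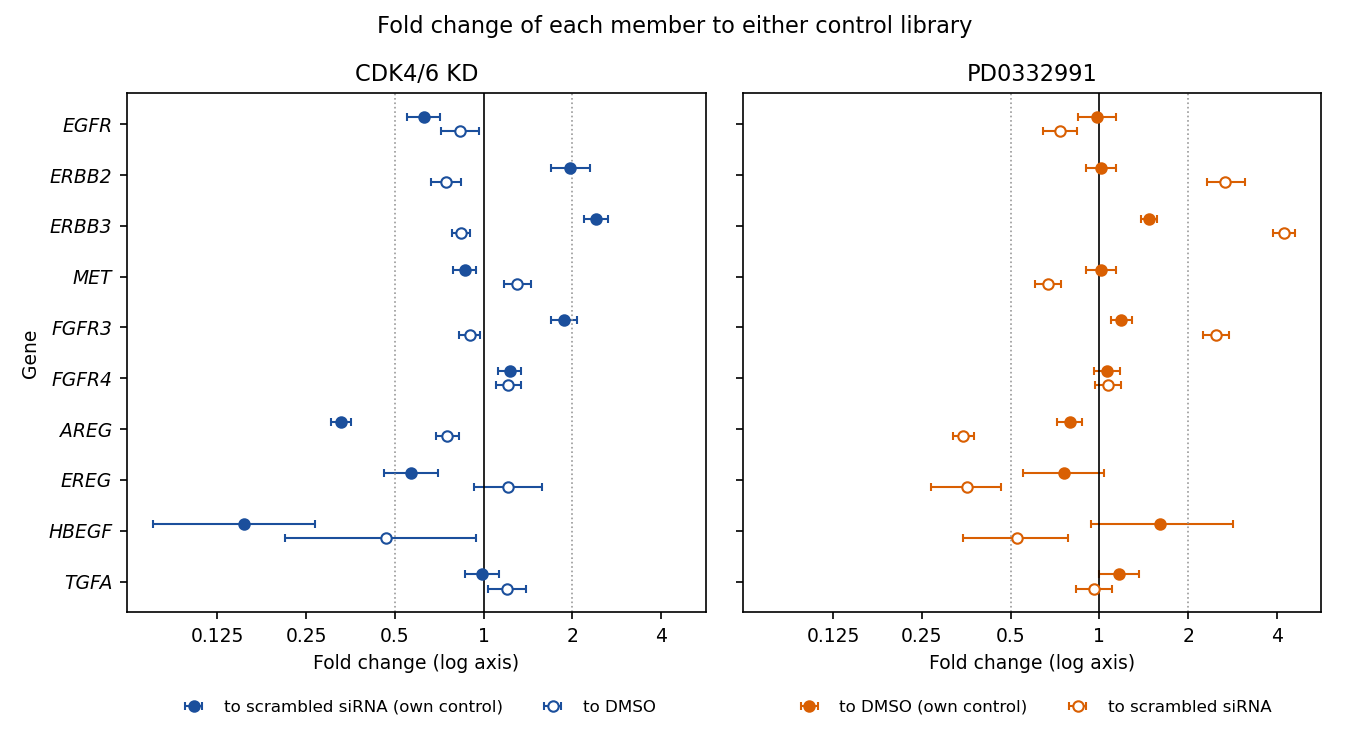
Fold change (log axis) of each gene in CDK4/6 KD (left) and PD0332991 (right), with filled points against the library's own control and open points against the other control. Bars are 95% Clopper-Pearson intervals and dotted lines mark 2-fold. The filled and open points of FGFR4 nearly coincide in both panels, while those of ERBB3 lie at 2.40 and 0.837 in CDK4/6 KD and at 1.47 and 4.23 in PD0332991.

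Against its own control, DMSO, PD0332991 had 0 of the 10 genes past 2-fold in either direction, beside 7.49% of 13443 genes higher and 7.07% lower. By counting error, ERBB3 and FGFR3 were higher (28.1% of all genes were), AREG was lower (28.6% were) and the intervals of the other 7 held 1. At 1.5-fold, 1 gene was higher (HBEGF) beside 16.8% of all genes and 0 were lower beside 15.1%. The widest of the 7 intervals was that of HBEGF, whose 23 and 37 reads left a range from 0.934 to 2.85, so at this depth a 2-fold difference could not be told from none. The median log2 fold change was 0.05 over the 10 genes and 0.018 over all genes. Against scrambled siRNA the same library had 3 genes at least 2-fold higher (ERBB2, ERBB3 and FGFR3, beside 10.7% of 13552 genes) and 2 at least 2-fold lower (AREG and EREG, beside 8.17%). By counting error 3 were higher (30.5% of all genes were), 5 were lower (32.5% were) and the intervals of FGFR4 and TGFA held 1. ERBB3 and FGFR3 were thus higher than both controls, beside 17.7% of 13312 genes, and AREG was lower than both, beside 19.0%.

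The drug and the siRNAs both act on CDK4/6, by kinase inhibition and by loss of the transcripts. Set side by side against their own controls, which share no library, the intervals of the PD0332991 and CDK4/6 KD fold changes overlapped for 4 genes (MET, FGFR4, EREG and TGFA) and lay apart for 6. The fold changes were on the same side of 1 for 7 genes and on opposite sides for MET, HBEGF and TGFA. Neither the overlap of intervals nor the side of 1 was counted over all genes. Whether these counts are unusual for genes at this depth therefore cannot be told. AREG was lower with either treatment against either control, with fold changes from 0.329 to 0.792. Whether times and doses were matched is not given for these libraries in the sources used here. The size of the difference between treatments is therefore not compared further.

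Within a library, the share of one gene's reads among a few genes needs no normalization. ERBB3 made up 63.2% of the EGFR, ERBB2 and ERBB3 reads in DMSO (95% Clopper-Pearson interval 61.4 to 65.1), 71.7% in PD0332991 (70.1 to 73.2), 44.5% in scrambled siRNA (42.0 to 47.1) and 64.9% in CDK4/6 KD (63.0 to 66.7). EGFR made up 14.2%, 10.7%, 38.2% and 14.5% of the same reads. The CDK4/6 KD and DMSO libraries thus had overlapping intervals for both receptors, while the scrambled siRNA library held fewer ERBB3 and more EGFR reads than any other.

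Among the reads of the 4 ligands, AREG made up 68.4% in DMSO (65.9 to 70.9), 61.0% in PD0332991 (58.2 to 63.8), 76.6% in scrambled siRNA (75.1 to 78.0) and 58.4% in CDK4/6 KD (55.9 to 60.9). TGFA followed with 22.8%, 29.9%, 13.6% and 31.0%, EREG had 7.09%, 6.03%, 7.37% and 9.69%, and HBEGF had 1.68%, 3.06%, 2.53% and 0.869%. AREG and TGFA together therefore held most ligand reads in each library, and their balance was most alike in PD0332991 and CDK4/6 KD. Set against the ERBB receptors, the 4 ligands made up 34.3% of the reads of both groups together in DMSO (32.8 to 35.8), 26.3% in PD0332991 (25.1 to 27.6), 68.4% in scrambled siRNA (67.1 to 69.7) and 36.1% in CDK4/6 KD (34.7 to 37.6). The share in CDK4/6 KD was close to that in DMSO, the share in PD0332991 was the lowest, and only in scrambled siRNA did ligand reads outnumber receptor reads. Between FGFR3 and FGFR4, FGFR3 had 59.7%, 62.4%, 41.7% and 52.3% of the reads.

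**Figure D3:**
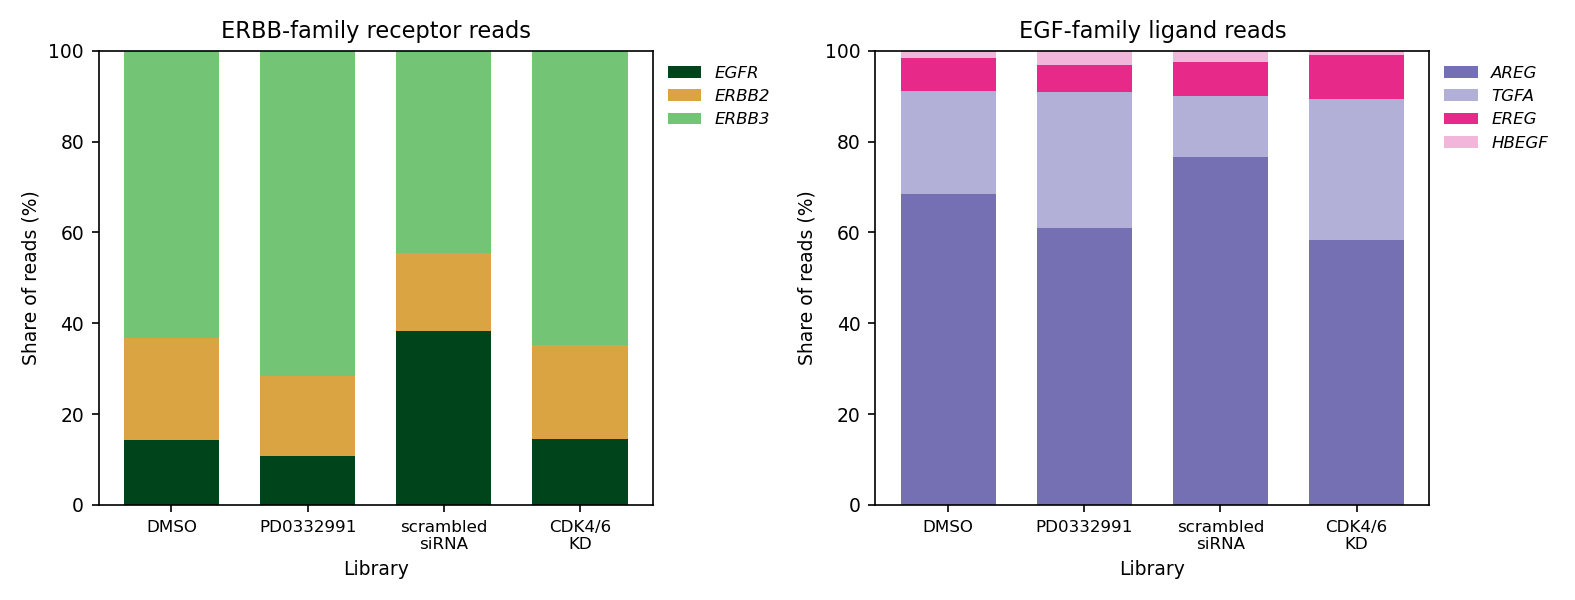
Share of reads (%) within each library, for EGFR, ERBB2 and ERBB3 (left) and for the 4 EGF-family ligands (right). EGFR takes 38.2% of the receptor reads in scrambled siRNA and 10.7% to 14.5% in the other libraries, and AREG takes from 58.4% of the ligand reads in CDK4/6 KD to 76.6% in scrambled siRNA.

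Of 7 other EGF-family ligands, only NRG4, a neuregulin that binds ERBB4, had at least 10 reads in any library. It had 56 reads in DMSO, 20 in PD0332991, 10 in scrambled siRNA and 33 in CDK4/6 KD. It was highest in DMSO, with a fold change in PD0332991 of 0.364 against DMSO (0.204 to 0.607) and 2.28 against scrambled siRNA (1.05 to 5.62). In CDK4/6 KD it was at 3.01 against scrambled siRNA (1.5 to 7.10) and 0.480 against DMSO (0.300 to 0.744), so its direction turned with the control for both treatments. The proteins that cut or process ligands and growth factors had 13 of 15 genes tested in CDK4/6 KD against scrambled siRNA, with 4 at least 2-fold higher and 1 lower (median log2 fold change 0.35). Against DMSO 3 of 13 were higher and 0 lower (median 0.19). The 1 lower was ADAM17, the main sheddase of AREG, EREG, HBEGF and TGFA, with 258, 259, 448 and 211 reads (libraries in the order DMSO, PD0332991, scrambled siRNA and CDK4/6 KD, here and for the genes that follow). Its fold change in CDK4/6 KD was 0.446 against scrambled siRNA (0.376 to 0.526) and 0.661 against DMSO (0.548 to 0.795), and in PD0332991 1.01 against DMSO (0.845 to 1.20) and 0.680 against scrambled siRNA (0.581 to 0.793). ADAM10, the sheddase of other EGF-family members, had 424, 409, 477 and 464 reads and did not differ beyond counting error in these comparisons. FURIN, a proprotein convertase, had 346, 631, 126 and 355 reads and was 2.66-fold above scrambled siRNA in CDK4/6 KD but 0.828 of DMSO. HGFAC, the activator of the MET ligand, had 75, 147, 85 and 212 reads and was higher in CDK4/6 KD than scrambled siRNA (2.35) and DMSO (2.27). In PD0332991 against DMSO, 1 of 12 such genes was past 2-fold, ST14, with 14 reads against 3 (ratio of counts 4.68, 95% interval 1.31 to 25.4), and against scrambled siRNA 3 of 12 were higher and 1 lower.

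MET and FGF receptor ligands and co-receptors had 9 of 17 genes tested in CDK4/6 KD against scrambled siRNA, of which 2 were at least 2-fold higher and 0 lower (median 0.46). Against DMSO 2 of 9 were higher and 0 lower (median 0.11). HGF, the MET ligand, had at most 2 reads in a library, and FGF19, the hormone that activates FGFR4, had 0 in each, which allows up to 3 reads. KLB, the co-receptor that FGFR4 needs for FGF19, had 995, 1494, 531 and 2294 reads. It was highest in CDK4/6 KD against either control (4.08, 3.71 to 4.50 against scrambled siRNA, and 1.86, 1.73 to 2.01 against DMSO), and in PD0332991 it was 1.51 times the DMSO level (1.39 to 1.63) and 3.30 times that of scrambled siRNA (2.99 to 3.66). NRP2, a neuropilin, had 13, 26, 15 and 98 reads and was 6.00-fold above scrambled siRNA (3.57 to 11.5) and 5.91-fold above DMSO (3.40 to 11.8). In PD0332991 against DMSO 1 of 10 was past 2-fold, CD44, at 23 against 9 reads (2.49, 1.14 to 6.30), and against scrambled siRNA 3 of 10 were higher and 0 lower.

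In hepatocytes FGFR4 and KLB lower bile acid synthesis by repressing CYP7A1, its rate-limiting enzyme. Of 8 genes of this axis, FGFR4 and KLB among them, 6 were tested in CDK4/6 KD. Of these, 4 were at least 2-fold higher than scrambled siRNA (KLB, CYP7A1, CYP8B1 and NR1H4), beside 9.19% of all genes. The median log2 fold change was 1.84, and 1 of the 6, NR0B2, was lower beyond counting error. CYP7A1 had 3, 9, 1 and 79 reads, and its ratio in CDK4/6 KD was 24.9 against scrambled siRNA set to the floor of 3 reads (95% interval of the counts from 13.0 upward) and 21.3 against the 3 reads of DMSO (7.01 to 105). CYP8B1, a second enzyme of the pathway, had 29, 54, 26 and 89 reads and was higher than scrambled siRNA (3.19, 2.07 to 5.22) and DMSO (2.45, 1.61 to 3.91). NR1H4, the bile acid receptor, had 257, 277, 79 and 337 reads, and its fold change of 4.01 against scrambled siRNA stood at 1.06 against DMSO. Against DMSO the median of the axis was 0.66 with 2 of 6 at least 2-fold higher, beside 8.04% of all genes. In PD0332991 it was 0.59 against DMSO, with 0 of 5 past 2-fold (7.49% of all genes were higher). Against scrambled siRNA it was 1.27, with 3 of 5 higher (10.7% of all genes were).

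Downstream of the receptors, the 24 adaptor and RAS-ERK relay genes were near the middle of all genes. In CDK4/6 KD against scrambled siRNA 1 was at least 2-fold higher and 1 lower (median 0.01), and in PD0332991 against DMSO 0 of 23 were past 2-fold (median -0.06). Against the other controls, 0 of 24 were higher and 1 lower in CDK4/6 KD (median 0.03), and 3 were higher and 0 lower in PD0332991 (median -0.03). The lower 1 was NRAS, a RAS GTPase, with 617, 389, 597 and 224 reads, whose fold change was 0.355 against scrambled siRNA (0.303 to 0.414), 0.294 against DMSO (0.250 to 0.342) and, in PD0332991, 0.633 against DMSO (0.556 to 0.719) and 0.766 against scrambled siRNA (0.672 to 0.871). The higher 1 was MAPK3, which encodes the kinase ERK1, with 377, 440, 197 and 494 reads (2.37 against scrambled siRNA, 1.06 against DMSO). Of 20 receptor attenuators and sorting genes tested, ERRFI1 was the only 1 past 2-fold in CDK4/6 KD against scrambled siRNA, and against DMSO 1 was higher and 1 lower. In PD0332991 0 of 20 were past 2-fold against DMSO, and 1 was higher and 1 lower against scrambled siRNA. ERRFI1 encodes MIG6, an inhibitor of EGFR and ERBB2 kinase activity, and had 863, 825, 502 and 232 reads. Its fold change was 0.437 against scrambled siRNA (0.372 to 0.511) and 0.217 against DMSO (0.187 to 0.251), while PD0332991 was at 0.959 of DMSO (0.871 to 1.06) and 1.93 of scrambled siRNA (1.73 to 2.16).

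For a list of 18 genes commonly induced by ERK signalling, the median was lower in CDK4/6 KD than in either control. In CDK4/6 KD against scrambled siRNA 0 were at least 2-fold higher and 10 lower, beside 9.19% and 7.62% of all genes. The median log2 fold change was -1.27, with 14 lower beyond counting error (31.9% of all genes were) and 0 higher (30.0% were). Against DMSO 8 of the 16 tested were at least 2-fold lower, beside 8.16% of all genes (median -1.02). By counting error 13 were lower (30.5% of all genes were) and 2 higher (28.9% were). Those higher were IER2 (1.14, 1.05 to 1.24) and PHLDA1 (1.20, 1.13 to 1.27). In PD0332991, 2 of 17 were at least 2-fold lower than DMSO, beside 7.07% of all genes (median -0.21). Against scrambled siRNA 9 of 18 were that far lower, beside 8.17% (median -0.98), so the count for PD0332991 depended on the control. EGR1, an immediate early transcription factor, had 172, 193, 1576 and 46 reads, so that scrambled siRNA was 7.81-fold above DMSO (6.68 to 9.21). In CDK4/6 KD it was at 0.0279 of scrambled siRNA (0.0201 to 0.0370) and 0.218 of DMSO (0.152 to 0.300). IER3, an immediate early gene, had 5812, 3904, 18350 and 2736 reads and was at 0.141 of scrambled siRNA and 0.380 of DMSO in CDK4/6 KD and at 0.674 of DMSO and 0.250 of scrambled siRNA in PD0332991. FOSL1, an AP-1 subunit, had 115, 42, 137 and 62 reads and was lower in PD0332991 (0.369 of DMSO, 0.251 to 0.526, and 0.363 of scrambled siRNA, 0.249 to 0.512) and in CDK4/6 KD (0.430 of scrambled siRNA, 0.437 of DMSO). In scrambled siRNA against DMSO, 7 of the 18 were at least 2-fold higher (5.30% of all genes were) and 0 lower (6.64% were). By counting error 8 were higher and 5 lower, beside 28.3% and 28.0% of all genes (median 0.24).

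Of 52 other receptor tyrosine kinases, 20 had enough reads for CDK4/6 KD against scrambled siRNA, with 2 at least 2-fold higher, 3 lower and a median of 0.34. Against DMSO the median was -0.16, and in scrambled siRNA against DMSO it was -0.52, with 14 of 20 lower beyond counting error. EPHB4, an ephrin receptor, had 1280, 1508, 888 and 2583 reads and was higher in CDK4/6 KD than scrambled siRNA (2.75, 2.55 to 2.97) and DMSO (1.63, 1.52 to 1.74). AXL, the GAS6 receptor, had 54, 54, 130 and 35 reads and was lower than scrambled siRNA (0.258, 0.170 to 0.372) and DMSO (0.527, 0.332 to 0.815). DDR2 (2, 1, 0 and 11 reads) and TIE1 (8, 3, 24 and 2 reads) also passed 2-fold in CDK4/6 KD but rested on few reads. In PD0332991 against DMSO the ephrin receptor EPHA2, itself an ERK-induced gene, had 151 against 404 reads (0.376, 0.309 to 0.453), and MST1R had 1 against 10 (interval 0.00231 to 0.705). Over the list, PD0332991 had 0 of 18 higher and 2 lower than DMSO (median -0.02), and 4 of 19 higher and 3 lower than scrambled siRNA (median 0.34).

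**Figure D4:**
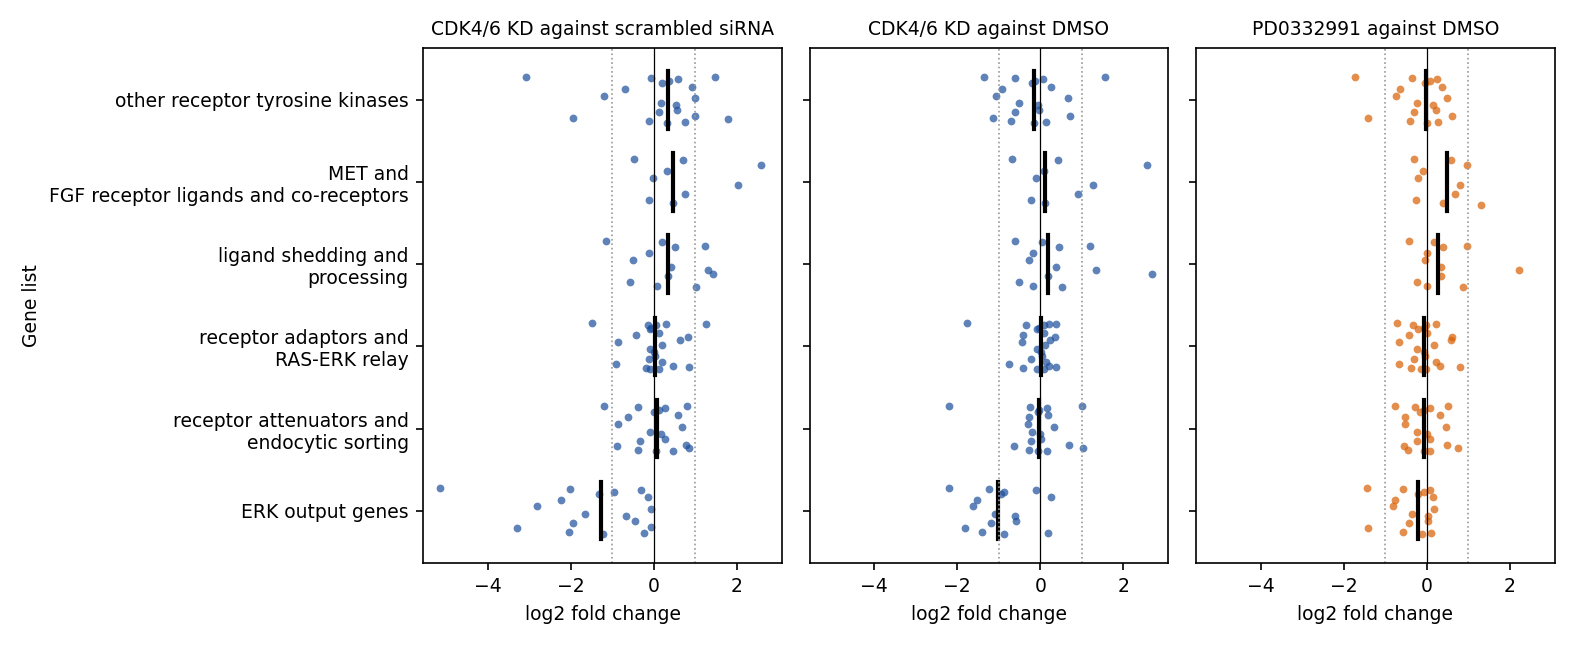
log2 fold change of each tested gene (points) in 6 gene lists, with the list median as a black bar, for CDK4/6 KD against scrambled siRNA (left), CDK4/6 KD against DMSO (middle) and PD0332991 against DMSO (right). Dotted lines mark 2-fold, and a library with 3 reads or fewer is set to 3 reads. The ERK output genes have medians of -1.27, -1.02 and -0.21 in the 3 panels, while the relay genes have medians of 0.01, 0.03 and -0.06.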

How the data were processed

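Total RNA of 4 HepG2 samples was turned into QuantSeq 3′ libraries and sequenced single-end. Per gene symbol, the authors deposited unnormalized counts of reads in 1 table per library, each with 25737 entries and with no pooling. The submitters' processing notes name Bowtie2, edgeR and hg19, without roles or versions, and the counter, annotation and strand setting are not given in the sources used here. Groups were taken from the sample titles.

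Counts of the 286 repeated symbols were summed. TMM factors for library size (edgeR 4.0.16 under R 4.3.3) lay between 0.957 and 1.03. A count of 3 reads was the floor, genes under 10 reads in both libraries were left out, and intervals came from scipy 1.17.1. A 2-fold difference stood in for a call, since edgeR's quasi-likelihood test cannot be run on 1 library per group. The fold procedure was tested on simulated Poisson counts. Those hold counting error alone, so the test cannot speak to PCR copies or to spread between cultures. The members and gene lists were chosen with earlier results of these data known, so no count over them is independent support. From each list, up to 2 genes higher and 2 lower past 2-fold per treated comparison were named, ranked by the interval end nearest to 1. ADAM10, HGF, FGF19, CYP8B1, NR1H4, NR0B2, KRT10, TP63, DSG3, IVL, AFP, IER2 and PHLDA1 were added after their values were seen. Positions are those of GENCODE 29 on GRCh38 and promoters those of RefSeq on GRCh38.p14, matched by symbol. They were not matched to the hg19 alignments. Alternatives were DESeq2 1.42.0 size factors, total counts, quantile normalization (limma 3.58.1), a pseudocount of 5 reads, no filter, a filter of 50 reads, thresholds of 1.5-fold or of the whole interval past 2-fold, repeated symbols taken at their most counted entry, and the control of the other arm.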

Additional observations from a re-analysis of the deposited data

How the results depend on the processing

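With the control of the other arm, 17 of the 20 fold changes (10 genes in 2 comparisons) moved beyond their counting interval and 1 reversed, ERBB3 in CDK4/6 KD, at a log2 fold change of -0.26 against DMSO. That count was not made over all genes, of which 28.3% were higher and 28.0% lower in scrambled siRNA than DMSO beyond counting error. In all, 6 of 10 genes in CDK4/6 KD and 3 in PD0332991 changed side of 1. That control left 1 gene past 2-fold in CDK4/6 KD, where scrambled siRNA gave 3, and gave 5 in PD0332991 (3 higher, 2 lower), where DMSO gave 0, with a PD0332991 median of -0.25. With total counts alone 5 genes passed 2-fold in CDK4/6 KD (3 higher, 2 lower), a scaling that moved the median of all genes to 0.10 and the share of higher calls among all genes from 54.7% to 63.7%. A threshold of 1.5-fold gave 7 genes in CDK4/6 KD (3 higher, 4 lower, beside 19.4% and 17.4% of all genes) and 1 in PD0332991 (HBEGF, 1.60, beside 16.8% of all genes higher). DESeq2 size factors, total counts, quantile normalization, a pseudocount of 5 reads, no filter and the most counted entry left all 20 fold changes within their counting intervals. A filter of 50 reads left 19, since HBEGF could not be given in PD0332991. TGFA in CDK4/6 KD changed side of 1 with total counts and with quantile normalization, and EGFR in PD0332991 with quantile normalization, all within counting error. No paired analysis was possible because each group had 1 library. HBEGF and EREG, with 13 to 242 reads, are the genes whose depth limits the precision most.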

Other observations

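The genes whose pattern over the 4 libraries was nearest to each of the 3 most variable members were looked up among 10672 or 10673 genes averaging 50 or more reads, by the Euclidean distance of centred log2 CPM. Nearest to HBEGF were MIXL1 (distance 0.390), RHOC (0.447) and ITGA2 (0.467), each highest in scrambled siRNA and lowest in CDK4/6 KD like HBEGF, since they were chosen by that pattern. MIXL1, a homeobox gene, gave 83.0, 135, 202 and 45.1 CPM in DMSO, PD0332991, scrambled siRNA and CDK4/6 KD. Nearest to ERBB3 were TOP1MT (0.0776), which encodes the mitochondrial topoisomerase I, C9orf129 (0.202) and VASN (0.209). TOP1MT gave 39.1, 56.8, 12.8 and 30.7 CPM in the same order. Nearest to AREG were PLCG1-AS1 (0.162), an antisense transcript whose reads cannot be told apart from those of PLCG1 without a stated strand setting, ABCG2 (0.196), a drug efflux pump, and POLR3G (0.249). With 4 libraries many genes lie close to any pattern, and neither support for a member's own values nor anything about shared control follows from these distances.

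Each hepatocyte marker kept at least 10 reads in every library, but not all of them moved the same way. FGB, a fibrinogen chain, had 3205, 4535, 2929 and 8122 reads in DMSO, PD0332991, scrambled siRNA and CDK4/6 KD, with a fold change in CDK4/6 KD of 2.62 against scrambled siRNA (2.51 to 2.74) and 2.05 against DMSO (1.96 to 2.13). ALB, which encodes albumin, had 30328, 27771, 27539 and 58465 reads (2.01, 1.98 to 2.04, and 1.56, 1.53 to 1.58). Of the 12 markers, 3 were at least 2-fold higher in CDK4/6 KD against scrambled siRNA (9.19% of all genes were) and 0 lower (7.62% were). The median log2 fold change was 0.27. Against DMSO 3 were higher (8.04% of all genes were) and 0 lower (8.16% were), with a median of 0.37. By counting error 10 were higher and 1 lower than scrambled siRNA, beside 30.0% and 31.9% of all genes. Against DMSO 10 were higher and 2 lower, beside 28.9% and 30.5%. In PD0332991 against DMSO 0 of 12 were past 2-fold (7.49% of all genes were higher and 7.07% lower) and the median was 0.39. By counting error 8 were higher there (28.1% of all genes were) and 3 lower (28.6% were). AFP was the furthest of the lower ones, at 0.687 of DMSO (0.658 to 0.717).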
